A study of Homo sapiens with 4 samples.

Results

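miR-192-5p, miR-194-5p and miR-215-5p are microRNAs (miRNAs) of the gastrointestinal epithelium, and they were followed by name in miRNA sequencing of RNA pulled down from gastric cancer cells. The 3 names were looked up among the 843 distinct mature miRNA names of the deposited table, of which 570 were known miRNAs and 273 were predicted from the reads. hsa-miR-192-5p and hsa-miR-194-5p, 2 of the 3 names, had a count in all 4 libraries. hsa-miR-215-5p had no row under its own name in the table used here and was therefore counted as not detected, although a predicted entry with nearly the same sequence is described below.

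HGC27 and AGS are established human gastric cancer cell lines, and in every group of the study the cells stably overexpressed the 3′-UTR of FN1, the fibronectin gene, from a lentivirus. Biotinylated RNA probes on streptavidin beads were incubated with cell lysate, and the RNA that stayed on the beads was sequenced. The 4 groups were HGC27 with the negative probe, HGC27 with the positive probe, AGS with the negative probe and AGS with the positive probe, with 1 library in each, and no group without the overexpression was analysed here. The study's methods name biotinylated antisense RNA on the beads without tying it to either probe, and which strand each probe carried is not given in the sources used here, so no value below says to which strand a miRNA bound. A change in what the beads held and a change in what the cells contained cannot be told apart.

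A miRNA is cut from a hairpin precursor and guides silencing of messenger RNAs that pair with its seed, the bases near its 5′ end. miR-192, miR-194 and miR-215 are processed from hairpins in 2 genomic clusters, each of which joins a copy of miR-194 to miR-192 or to miR-215. They are known as abundant miRNAs of intestinal epithelium, also present in liver and kidney, and as miRNAs that respond to the tumour suppressor p53.

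The mature sequences show which of these miRNAs could be mistaken for each other, and the seed (bases 2 to 8) is given in capitals. The sequence of the predicted entry is the one that the deposited table gives, and the others are RefSeq sequences on GRCh38.p14.
miR-192-5p: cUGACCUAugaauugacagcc
Predicted entry on chromosome 1: aUGACCUAugaauugacagaca
miR-215-5p: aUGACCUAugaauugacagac
miR-194-5p: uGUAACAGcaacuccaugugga

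miR-192-5p and miR-215-5p, both of 21 bases, had 19 identical bases and the same seed. Counted from 1 at the 5′ end of miR-192-5p, miR-215-5p differed from it by C1A and C20A. The predicted entry was the whole of miR-215-5p with 1 further base at the 3′ end. Its 22 bases matched exactly in 1 of 1562 RefSeq hairpins, that of MIR215. The count of the predicted entry is reported apart from that of miR-192-5p. The seed of these sequences was found in no RefSeq mature miRNA other than miR-192-5p and miR-215-5p, 2 of 2370 names. miR-194-5p had a different seed.

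miR-192-5p lies at chr11:64891203-64891223 on the minus strand of GRCh38, within the MIR192 hairpin. The MIR194-2 hairpin lies 108 bases away from it on the same strand, with miR-194-5p at chr11:64891404-64891425, and MIR194-2HG, a long noncoding RNA gene, has both hairpins inside an exon. The other cluster is on chromosome 1, where miR-215-5p lies at chr1:220117916-220117936 and a second copy of miR-194-5p at chr1:220118206-220118227, in neighbouring hairpins. Both of those hairpins are on the strand opposite to IARS2, which encodes a mitochondrial isoleucyl-tRNA synthetase, within an intron of that gene. The copies of miR-194-5p are identical, so its counts could not be divided between the clusters.

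The libraries held 1296853 to 2955078 miRNA counts, over 574 and 609 names in HGC27 and 342 and 361 in AGS (negative and positive probe). Levels are given as raw tag counts and as the deposited score, which is tags per 1000000 rounded to whole numbers. Summed scores of 7 detected epithelial marker miRNAs were 781 and 375 in HGC27 and 10294 and 823 in AGS (negative, then positive probe), and were higher in AGS with both probes. Of these sums, miR-200c-3p alone held 617 and 331 in HGC27 and 6105 and 632 in AGS. miR-375-3p went the other way, with 1 and 4 in HGC27 and 0 and 2 in AGS, and miR-141-3p had counts only in AGS with the negative probe. Summed scores of 6 mesenchymal markers were, with the identical miR-199b-3p and miR-199a-3p entered once, 3521 and 3616 in HGC27 and 11 and 39 in AGS. The like sums in HGC27 came from members that went opposite ways between the probes. There miR-199a-3p had scores of 2646 and 21 and miR-214-3p 24 and 7, whereas miR-143-3p had 688 and 3301 and miR-199a-5p 162 and 285. The liver miRNA miR-122-5p had scores of 13 and 11 in HGC27 and 1 and 11 in AGS. Of 8 blood cell markers 2 were listed, and the erythroid miR-451a had no entry. miR-486-5p had 2 and 3 counts in HGC27 and 6 and 28 in AGS. miR-144-3p had 2 counts in HGC27 with the negative probe and was blank elsewhere. The part of these differences in the results below was not tested.

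miR-192-5p was the most abundant of these miRNAs in every library, and its scores were alike in 3 of the 4. It had a score of 120 (349 counts) in HGC27 with the negative probe and 118 (326 counts) with the positive probe. In AGS it had 116 (832 counts) with the negative probe and 224 (959 counts) with the positive probe. Its score thus stood apart in the AGS library with the positive probe. By rank it was number 97 of 574 names and 75 of 609 in HGC27, and 42 of 342 and 31 of 361 in AGS.

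miR-194-5p was less abundant, and its score was lower with the positive probe in both lines. Its scores in HGC27 were 22 (65 counts) with the negative probe and 6 (16 counts) with the positive probe. In AGS they were 35 (253 counts) and 2 (9 counts). The highest and the lowest of the 4 values were therefore both in AGS.

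**Figure D1:**
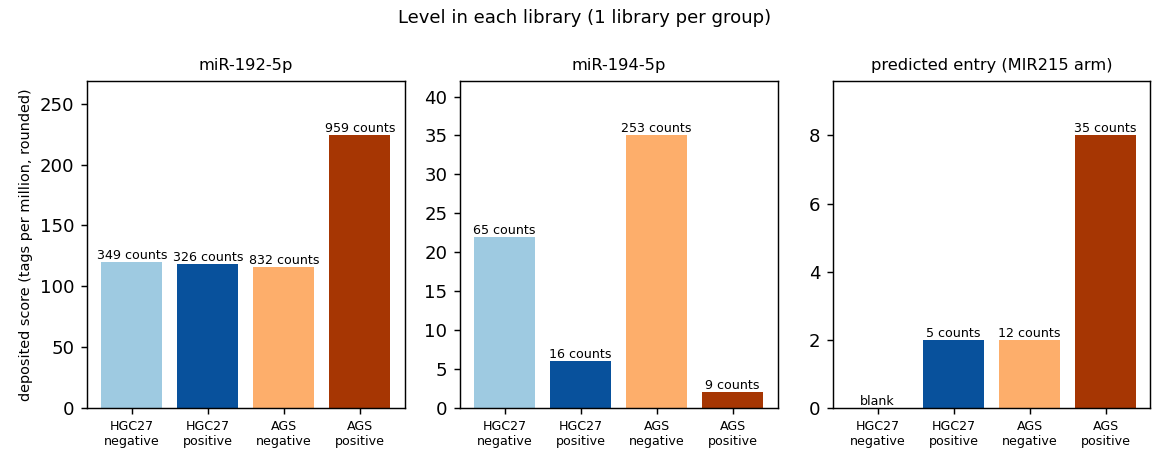
Deposited score (tags per 1000000, linear axis from 0) of miR-192-5p, miR-194-5p and the predicted entry that carries miR-215-5p in the 4 libraries, with raw counts above the bars and 1 library per bar. miR-192-5p stood at 116 to 120 in 3 libraries and at 224 in AGS with the positive probe, whereas miR-194-5p was lower with the positive probe in both lines.

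The predicted entry that carries miR-215-5p was scarce. It was blank in HGC27 with the negative probe and had 5 counts (score 2) with the positive probe. In AGS it had 12 counts (score 2) with the negative probe and 35 counts (score 8) with the positive probe. Its highest score was in the same library as that of miR-192-5p. Of the opposite hairpin arms, miR-194-3p, listed for the MIR194-2 precursor, had 2 and 3 counts in AGS and was blank in HGC27. miR-192-3p and miR-215-3p had no entry. The table lists no count under 2, so a blank gives no upper limit.

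The comparison of the probes asked which miRNAs came down with the positive probe rather than the negative one in each line. The ratio was (score + 1) with the positive probe over (score + 1) with the negative probe, called past the fold at 2 or more or at 0.5 or less. Intervals are exact 95% intervals of the fold in counts, which cover counting error only, and with 1 library per group no test was made within a line.

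In HGC27, the score of miR-194-5p was 3.29-fold lower with the positive probe (log2 ratio -1.72), past the fold, and its fold in counts was 0.259 with an interval of 0.140 to 0.453. Of the 755 names with a count in that line, 34% were at a ratio of 0.5 or less and 37.5% at 2 or more, so such a ratio was common. Of the 366 names with at least 10 counts in either library, 70 had a lower ratio than miR-194-5p. miR-192-5p had a ratio of 0.983 (log2 -0.02), with an interval of 0.842 to 1.15. The median log2 ratio of the 366 names was -0.12. The predicted entry had 5 counts against a blank. With the blank taken as 0 the interval of that fold began at 0.964. A blank gives no upper limit, so no difference is read from these counts.

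In AGS, miR-194-5p was 12-fold lower with the positive probe (log2 ratio -3.58), and its fold in counts was 0.0598 with an interval of 0.0270 to 0.115. Of 459 names, 22.7% were at 0.5 or less and 39.4% at 2 or more. Only 12 of 230 names with at least 10 counts had a lower ratio than miR-194-5p. The score of miR-192-5p was 1.92-fold higher (log2 0.94), just short of the fold, with an interval of 1.76 to 2.13 in counts. This direction depended on the scaling, since its log2 ratio was -0.93 when miR-372-3p and miR-148a-3p, both highly abundant, were left out of the total. The median of the 230 names was 0.42 as deposited, and relative to the median under each scaling and pseudocount miR-192-5p was 0.40 to 0.70 higher. The predicted entry had a ratio of 3 by score (log2 1.58) and was 4.90-fold higher in counts, with an interval of 2.48 to 10.4, but its log2 ratio was 0.39 with the same abundant miRNAs left out.

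**Figure D2:**
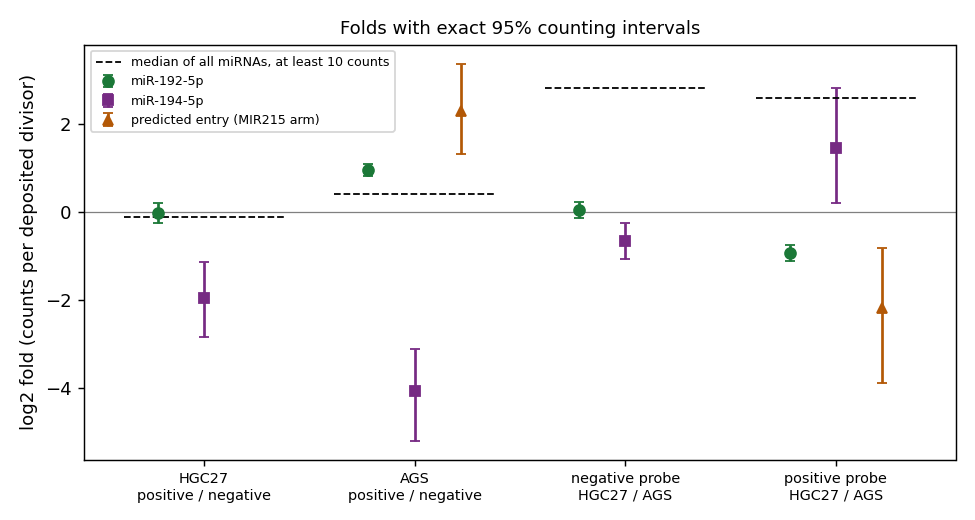
Fold in counts on a log2 axis for each of the 4 comparisons, with exact 95% counting intervals as bars and a dashed line for the median log2 score ratio over the names that had 10 counts or more. miR-194-5p lay below the median in each comparison, and miR-192-5p lay close to it in HGC27 between the probes.

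**Figure D3:**
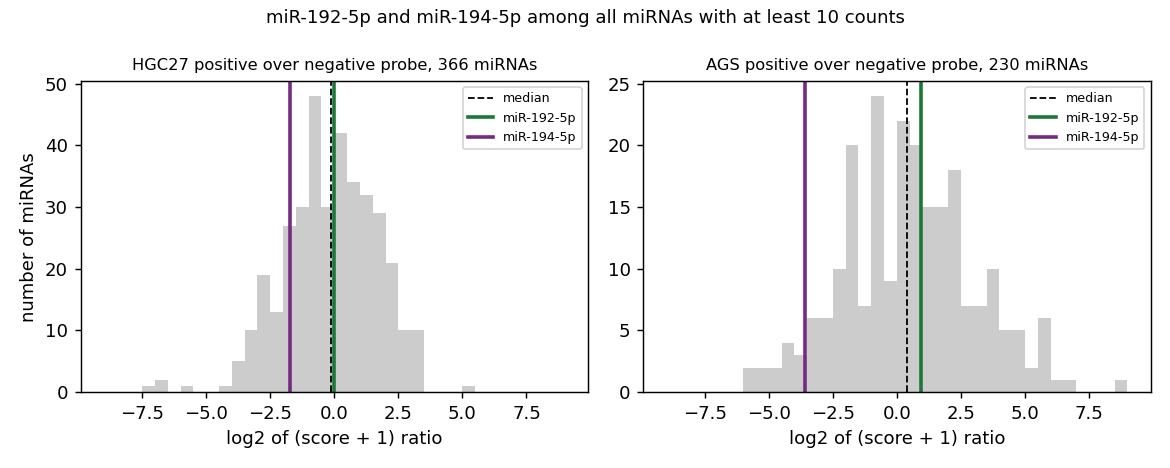
Histograms of the log2 ratio of the positive over the negative probe for 366 miRNAs in HGC27 and 230 in AGS, with miR-192-5p and miR-194-5p marked by lines. miR-192-5p lay in the middle of both distributions, and miR-194-5p lay toward the lower end, farther out in AGS.

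Counts of these miRNAs within the same library do not depend on any scaling between libraries, and in both lines they tilted further toward miR-192-5p with the positive probe. In HGC27 there were 5.37 counts of miR-192-5p for each count of miR-194-5p with the negative probe (exact 95% interval 4.11 to 7.11) and 20.4 with the positive probe (12.4 to 36.1). In AGS these values were 3.29 (2.85 to 3.80) and 106.6 (55.9 to 234). The intervals of the probes did not overlap in either line, but they cover counting error only, with 1 library per group. The AGS value with the positive probe rests on 9 counts of miR-194-5p. Changes between the probes were common over all names, with 34% at a ratio of 0.5 or less and 37.5% at 2 or more in HGC27. In AGS these shares were 22.7% and 39.4%. The share of other pairs that moved as far was not computed. miR-192-5p per miR-194-5p was 3.79-fold higher with the positive probe in HGC27 (2.11 to 7.17) and 32.4-fold higher in AGS (16.6 to 72.1). As a share of the pair, miR-194-5p made up 15.7% and 4.68% in HGC27 and 23.3% and 0.930% in AGS.

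**Figure D4:**
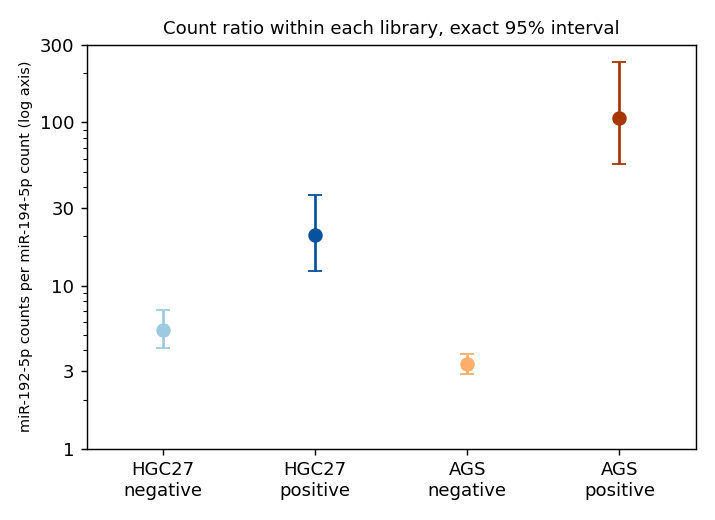
Counts of miR-192-5p for each count of miR-194-5p in the 4 libraries, on a log axis with exact 95% counting intervals. The value was between 3.29 and 5.37 with the negative probe, 20.4 in HGC27 with the positive probe and 106.6 in AGS with the positive probe.

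The predicted entry made up a small share of the reads with the shared seed. It was 1.42% of the sum of miR-192-5p and the predicted entry in AGS with the negative probe (0.737 to 2.47%) and 3.52% with the positive probe (2.46 to 4.86%). In HGC27 with the positive probe it was 1.51% (0.492 to 3.49%). Counts of miR-192-5p per count of the predicted entry were 69.3 and 27.4 in AGS, a change of 0.395-fold (0.186 to 0.786). Beside its chromosome 1 neighbour the order turned over in AGS, with 21.1 counts of miR-194-5p per count of the predicted entry with the negative probe and 0.257 with the positive probe. Reads of miR-194-5p from chromosome 11 are in those values too.

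Both probe comparisons were then fitted together with edgeR's quasi-likelihood test on the counts of all 4 libraries, with the cell line as a covariate, so that the lines stood in for replicates. Of 271 miRNAs tested, 4.06% were called higher and 2.95% lower with the positive probe after Benjamini-Hochberg adjustment. For miR-194-5p the log2 fold change was -3.38 ± 1.28 (SE), lower in 2 of 2 lines. Each SE given for edgeR was back-calculated from the fold change and the test statistic. The adjusted p of miR-194-5p was 0.0699 in edgeR, which missed the threshold of 0.05. Its adjusted p ranged from 0.0699 to 0.611 over the fit and its alternatives. miR-192-5p had a log2 fold change of 0.06 ± 1.11 and an adjusted p of 0.985 in edgeR. The predicted entry and miR-194-3p did not pass the filter on low counts.

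The cell lines were compared at the same probe. With the negative probe, the deposited scores of miR-192-5p in HGC27 and AGS did not differ beyond counting error, at a ratio of 1.03 (log2 0.05) with an interval of 0.912 to 1.18. This held for the deposited scaling, as the log2 ratio was -2.97 with scaling by trimmed means (TMM) and -2.01 with miR-372-3p and miR-148a-3p left out. Most other names had far higher scores in HGC27, with 86% of 615 at a ratio of 2 or more and 6.02% at 0.5 or less, and the median log2 ratio of 330 names with at least 10 counts was 2.81. Of these 330 names, 34 had a lower ratio than miR-192-5p. miR-194-5p had a ratio of 0.639 (log2 -0.65), with an interval of 0.476 to 0.836.

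With the positive probe, miR-192-5p was lower in HGC27, at a ratio of 0.529 (log2 -0.92) and an interval of 0.462 to 0.597. Among 684 names, 75.3% were at 2 or more and 12.9% at 0.5 or less, and the median log2 ratio of 332 names was 2.58. miR-194-5p had a ratio of 2.33 (log2 1.22) from 16 and 9 counts, with an interval of 1.14 to 7.06, but this turned to a log2 ratio of -0.70 with TMM. The predicted entry had 5 counts in HGC27 and 35 in AGS, a fold in counts with an interval of 0.0676 to 0.566. Relative to the median of all names, miR-192-5p and miR-194-5p were lower in HGC27 with both probes under each of the 6 scalings and pseudocounts used.

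In the edgeR fit of the line effect, with the probe as a covariate, 22.1% of the 271 miRNAs were called higher and 7.75% lower in HGC27, and the median log2 fold change was 0.63. miR-192-5p was among those called lower, with a log2 fold change of -3.32 ± 1.21 (SE) and an adjusted p of 0.0237 in edgeR. It was also called by edgeR with DESeq2 size factors (adjusted p 0.00548) and by the DESeq2 Wald test (adjusted p 0.00790). In edgeR it was not called with scaling by library totals (-0.77, adjusted p 0.395), without the filter (adjusted p 0.207) or without the covariate (adjusted p 0.0667). Its distance below the median of all miRNAs was 3.95 on the log2 scale both with TMM and with library totals. miR-194-5p had -2.62 ± 1.29 and an adjusted p of 0.117 in edgeR, and was not called.

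Other epithelial miRNAs were set beside them, namely miR-200a-3p, miR-200b-3p, miR-200c-3p, miR-141-3p, miR-429, miR-203a-3p, miR-375-3p and miR-31-5p. They include the miR-200 family, which holds cells in an epithelial state by silencing ZEB1 and ZEB2. In AGS, 7 of these 8 had at least 10 counts in either library, and all 7 were at a ratio of 0.5 or less, with a median log2 ratio of -3.12 beside -3.58 for miR-194-5p and 0.94 for miR-192-5p. Among all 230 names with such counts in AGS, 31.3% were at 0.5 or less and 40.4% at 2 or more. The member of the list left out by that minimum, miR-375-3p, went the other way in AGS. It was blank with the negative probe and had 7 counts with the positive probe, a ratio of 3. In HGC27, 6 had at least 10 counts, of which 1 was at 0.5 or less and 2 at 2 or more, with a median of -0.62, and over all 366 names the shares were 33.3% and 28.1%. miR-203a-3p, a miRNA of stratified epithelium, had scores of 128 and 14 in HGC27 and 1998 and 71 in AGS. miR-200c-3p had scores of 617 and 331 in HGC27 and 6105 and 632 in AGS.

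In the edgeR fit 6 of these 8 miRNAs were tested, and 0 were called between the probes at an adjusted p under 0.05. Over all 271 miRNAs, 4.06% were called higher and 2.95% lower. Of the 6, 2 had an unadjusted p under 0.05 in edgeR, beside 55 of the 271. The DESeq2 Wald test and edgeR with DESeq2 size factors both called 1 of these miRNAs lower. Between the lines, 6 of 6 were called lower in HGC27, beside 7.75% of all 271 miRNAs. The filter set part of this, as miR-31-5p, with 3 and 0 counts in HGC27, was kept by 430 and 24 in AGS. Of the untested names, miR-141-3p had counts only in AGS with the negative probe (12). miR-375-3p went the other way, with scores of 1 and 4 in HGC27 and 0 and 2 in AGS. The median log2 fold change of the 6 tested was -6.60 beside 0.63 over all 271 miRNAs, and without the filter 0 of 8 were called. miR-192-5p and miR-194-5p, at -3.32 and -2.62, lay between these medians.

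Among 9 other miRNAs known to respond to p53, 6 were listed, and 2 were tested in edgeR, miR-107 and miR-16-5p, both known to restrain the cell cycle. miR-16-5p was called lower with the positive probe in edgeR (adjusted p 0.0438), with scores of 142 and 24 in HGC27 and 15 and 0 in AGS. It was also called by edgeR with DESeq2 size factors (adjusted p 0.0442) and by the DESeq2 Wald test (adjusted p 0.0490). In edgeR it was not called with library totals (adjusted p 0.129), without the filter (0.458) or without the covariate (0.611). miR-107 had scores of 193 and 33 in HGC27 and 10 and 1 in AGS and missed the threshold, at an adjusted p of 0.0575 in edgeR. Between the lines neither was called, except with library totals, where both were called higher in HGC27. miR-34a-5p, the best known p53 target among miRNAs, had 2 or 3 counts in each library.

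The miRNA with the profile most like that of miR-192-5p over the 4 libraries, among 359 known miRNAs, was miR-21-5p, which is abundant in many cancers. Likeness was the Euclidean distance between log2(score + 1) profiles centred on their means, and it was 0.55 for miR-21-5p, with scores of 504 and 710 in HGC27 and 410 and 1008 in AGS. The next were miR-409-3p (0.64), miR-501-3p (0.75), miR-486-5p (0.77) and miR-2276-3p (0.84). Of these, miR-409-3p, miR-486-5p and miR-2276-3p were near the floor, with scores of 0 to 6, so their distances rest on very few counts. For miR-194-5p the nearest was miR-99b-5p (1.11), with scores of 29357 and 6149 in HGC27 and 15840 and 2621 in AGS. The others were miR-21-3p (1.23), miR-4677-3p (1.43), miR-132-3p (1.46) and miR-548k (1.48). Among them, miR-21-3p and miR-132-3p had scores of 0 with the positive probe in both lines. miR-192-5p and miR-194-5p were 3.49 apart, and 199 of the other miRNAs were nearer to miR-192-5p than miR-194-5p was. The predicted entry was 1.68 from miR-192-5p, with 33 nearer to it. These distances are over 4 libraries and are a description.

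The FN1 3′-UTR of the annotation (1101 bases at chr2:215360454-215361554, minus strand of GRCh38) was searched for letters that pair with the seeds. TAGGTCA, which pairs with the seed of miR-192-5p and miR-215-5p, had 0 matches in the sense strand, and 4.20% of 9614 3′-UTR windows of the same length held it. CTGTTAC, which pairs with the seed of miR-194-5p, also had 0 matches, and 6.42% of the windows held it. On the antisense strand the counts were also 0 for both, with 4.36% and 5.28% of windows holding a match. The shorter AGGTCA had 0 matches, in 25.4% of windows, and TGTTAC had 1, in 22.9%. A match or its absence describes these letters alone.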

How the data were processed

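For 4 pull-down libraries, 1 per group, the deposited table holds raw counts of tags for each mature miRNA and precursor (901 rows, collapsed to 843 names). It also holds a score made by the authors, per the methods tags per 1000000 aligned, which were deposited as whole numbers. The library totals were 35.7% to 50.0% of the divisors recovered from count and score. The submitters' processing notes name cutadapt 1.9.3, Novoalign 3.02.12 and hg38. Groups came from the sample titles. The members, lists and tests were chosen with earlier results of these data known. The named miRNAs were the members, their other arms, epithelial and p53-responsive lists, and the 5 nearest profiles of each. Ratios used a pseudocount of 1 on the score, which understates the change of low miRNAs. Intervals were exact (Clopper-Pearson) at 95%. They cover counting error only, as reads without molecular identifiers are not independent molecules. Counts were tested with edgeR 4.0.16 (TMM, filterByExpr, quasi-likelihood, two-sided, Benjamini-Hochberg), after a run on simulated data, and DESeq2 1.42.0 was an alternative. The recovery required in the simulation was set at a lower variation between libraries than these data had, so it does not give the recovery here. The fit had 1 residual degree of freedom, and its prior degrees of freedom were estimated as infinite. Its p-values therefore rest on a variance shared over the 271 tested miRNAs rather than estimated for each. They also rest on lines or probes standing in for replicates. Other alternatives were pseudocounts of 0.1 and 10, other scalings, no filter and no covariate. Sequences came from RefSeq (GRCh38.p14) and gene annotation from GENCODE 29 (GRCh38). Analyses ran in Python 3.11.15 with pandas 2.3.3 and scipy 1.17.1, and in R 4.3.3.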

Additional observations from a re-analysis of the deposited data

Results flagged for a closer look

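The log2 ratio of miR-192-5p between the probes was -0.02 in HGC27, within counting error, and 0.94 in AGS, a difference of -0.97 (HGC27 minus AGS). This difference was -0.19 with TMM and turned to 0.61 with miR-372-3p and miR-148a-3p left out of the total. The same counts gave a difference of 0.97 between the negative and the positive probe in its HGC27 over AGS log2 ratio, with 0.19 and -0.61 under those settings. For miR-194-5p that difference was -1.87, from log2 ratios of -0.65 with the negative probe and 1.22 with the positive probe, the latter from 16 and 9 counts. With TMM both of its ratios were below 0 (-3.63 and -0.70), and the difference was -2.93. These values were noted because the deposited ratios had opposite signs in the groups compared. With 1 library per group none of these differences was tested.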

How the results depend on the processing

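No paired analysis was possible because the labels number no replicates, other than through the cell line covariate, which set the probes against each other within a line. Between the probes, miR-194-5p was lower in both lines under all 6 settings, with log2 ratios from -2.19 to -1.0 for HGC27 and from -5.81 to -1.91 for AGS. The ends nearest 0 came with a pseudocount of 10. The log2 ratio of miR-192-5p in AGS was 1.15 with table totals, 0.23 with TMM and -0.93 with miR-372-3p and miR-148a-3p left out of the total, which gave -0.33 for it in HGC27 and -5.81 for miR-194-5p in AGS. For HGC27 over AGS with the negative probe, miR-192-5p was at -0.23 with table totals, -2.97 with TMM and -2.01 without these abundant miRNAs, and miR-194-5p was at -3.63 with TMM and -2.71 without them. With the positive probe miR-192-5p was at -1.32, -3.17 and -1.41 under the same settings, and miR-194-5p reversed to -0.70 with TMM. The cause of these shifts was not tested. Names past the fold numbered 540, 285, 566 and 603 in the comparisons HGC27 probes, AGS probes, negative probe lines and positive probe lines, and 225, 165, 312 and 291 with at least 10 counts, where fewer names were tested. edgeR called 19 miRNAs between the probes, against 32 with DESeq2 size factors, 32 with the DESeq2 Wald test, and 0 with library totals (52 at an unadjusted p under 0.05), without the filter (66) and without the covariate (17). Between the lines it called 81, against 169 with library totals, 0 without the filter (95 at an unadjusted p under 0.05), 59 with the DESeq2 Wald test and 65 without the covariate. The log2 probe effect of miR-192-5p turned from 0.06 to -0.025 without the covariate. Merging the predicted entry into miR-215-5p gives that miRNA the values of the entry. Scarce counts (9 and 16 for miR-194-5p with the positive probe) limit the precision.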
